A study of Mus musculus with 4 samples.

Results

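The genes described here were 6 Toll-like receptor genes (Tlr2, Tlr4, Tlr7, Tlr8, Tlr9 and Tlr13) and 3 genes whose products work with them (Cd14, Ly96 and Myd88). They were taken by name from the gene lists of the count matrices, so that 9 of 31053 listed genes were followed, and all 9 were found in every library. The cells came from the hearts of CSF1R-EGFP+ reporter mice aged 12 to 16 weeks and were sorted as EGFP-positive and Ly6G-negative before droplet-based sequencing of the 3′ ends of transcripts. The baseline library pooled 3 hearts of mice without surgery, and each of 3 infarct libraries held 1 heart taken 7 days after ligation of the left coronary artery. All mice carried the reporter, in which EGFP follows Csf1r, a gene of monocytes, macrophages and some dendritic cells. From the infarcted hearts the remote, non-infarcted region was removed before digestion, so that infarct and baseline libraries differ in the tissue sampled as well as in surgery. The labels give neither sex nor strain.

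Toll-like receptors are membrane proteins that recognise microbial molecules and products of injured cells. TLR2 and TLR4 sit at the cell surface, where CD14 passes lipid ligands to them and LY96 (MD-2) is the ligand-binding partner of TLR4. TLR7, TLR8, TLR9 and TLR13 sit in endosomes and recognise nucleic acids, with ribosomal RNA the known ligand of the mouse receptor TLR13 and unmethylated DNA that of TLR9. MYD88 is the adaptor through which these receptors activate NF-kB and interferon regulatory factors. In the infarcted heart these receptors are known as sensors of debris from dying cells.

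In GRCm38, Tlr2 lies at chr3:83836272-83841767 on the minus strand, Tlr4 at chr4:66827584-66930284 on the plus strand, Ly96 at chr1:16688051-16709611 on the plus strand and Tlr9 at chr9:106222598-106226883 on the plus strand. Tlr7 (chrX:167304929-167330558, minus), Tlr8 (chrX:167242696-167264329, minus) and Tlr13 (chrX:106143204-106160493, plus) are X-linked. Myd88 (chr9:119335934-119341411, minus) overlaps Slc22a14 on its own strand, without overlap of exons, and exons of Acaa1a on the other strand. Any effect of these overlaps on the Myd88 counts was not tested. Cd14 was left out of the promoter search, and of the other genes 5 had a RefSeq promoter sequence (GRCm38.p6). The 3 below are shown because Tlr8 differed most between infarct and baseline over all cells, Tlr13 stood out in non-classical monocyte-like cells, and Myd88 was high in classical monocyte-like cells. Each line is the longest stretch of the 250 bases before the RefSeq start that lies outside the exons the GENCODE annotation gives that gene. For Myd88 the RefSeq start lies inside the gene span given above, so its window is within that span and not before the start of the gene. Capitals mark GAGGAA, the core bound by the myeloid factor PU.1 (TTCCTC where it lies on the other strand), or GAAANNGAAA, a pair of interferon regulatory factor contacts. The windows are chrX:167264330-167264579 for Tlr8, chrX:106143025-106143203 for Tlr13 and chr9:119340042-119340268 for Myd88, each given on the strand of its gene.
Tlr8: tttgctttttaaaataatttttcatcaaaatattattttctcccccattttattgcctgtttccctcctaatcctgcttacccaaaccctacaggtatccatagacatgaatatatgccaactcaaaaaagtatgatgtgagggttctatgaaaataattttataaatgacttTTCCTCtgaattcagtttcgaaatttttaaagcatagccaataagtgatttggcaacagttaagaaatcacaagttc
Tlr13: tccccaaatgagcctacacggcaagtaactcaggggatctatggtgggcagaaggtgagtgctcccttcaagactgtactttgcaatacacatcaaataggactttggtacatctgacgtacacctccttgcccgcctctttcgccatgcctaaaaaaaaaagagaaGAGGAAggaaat
Myd88: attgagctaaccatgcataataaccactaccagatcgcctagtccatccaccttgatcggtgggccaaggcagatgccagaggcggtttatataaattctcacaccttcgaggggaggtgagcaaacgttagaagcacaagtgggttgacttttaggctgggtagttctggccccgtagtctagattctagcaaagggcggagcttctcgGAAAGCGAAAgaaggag
Upstream of Tlr2, on the minus strand at chr3:83841768-83841858, matches of the NF-kB motif overlap within the stretch in capitals, and the sequence is shown because Tlr2 lay above baseline.
Tlr2: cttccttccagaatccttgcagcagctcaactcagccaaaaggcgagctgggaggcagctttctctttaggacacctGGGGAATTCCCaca
Searched on both strands over 250 bases before the start, the PU.1 core was found in 23.3% of 32851 RefSeq promoters, the NF-kB motif in 7.25% and the interferon regulatory factor pair in 2.98%. A match is only a description of the letters in these windows.

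The libraries held 10238 kept cells at baseline and 10396, 10782 and 10117 in infarcts 1 to 3. Deposited totals were 71093963 unique molecular identifiers (UMIs, 1 per captured transcript) at baseline and 88157753 to 97944428 in the infarcts, and the median cell had 6398.5 UMIs at baseline and 8469.5 to 8556.5 in the infarcts. Csf1r was found in 89.7% to 93.9% of cells, and Ly6g had at most 3 UMIs in any library. Any pair of libraries shared 26 to 34 cell barcodes. Infarct 3 stood apart in sex-linked transcripts. Xist was at 766 CPM there and at 0.0426 to 0.0740 CPM in the other libraries, whereas the Y-linked Ddx3y had 3 UMIs in infarct 3 and 63.1 to 90.1 CPM elsewhere. Main values of the X-linked receptor genes, and values that turn on infarct 3, are also given without it. Levels are CPM, the UMIs of a gene per 1000000 UMIs summed over the cells of a library or type, with mitochondrial genes left out. Because transcripts are counted at their 3′ ends, levels were compared between samples and types and not between genes.

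Cells were sorted into types by marker genes, none of which was one of the 9 genes. Of 18 marker lists, 13 types had at least 20 cells in every infarct library, and 11 of them also did at baseline. The most common type in the infarcts was the reparative macrophage-like type (Gpnmb, Spp1, Trem2), with 2905, 4281 and 3564 cells against 115 at baseline. At baseline the most common was the resident macrophage-like type (Lyve1, Cd163, Folr2), with 2657 cells against 63, 61 and 83 in the infarcts. Saa3/Arg1 macrophage-like cells numbered 977, 72 and 619 in the infarcts and 11 at baseline, too few for a baseline value. Between 8.38% and 14.1% of cells in a library were given no type, and 0.983% to 3.33% passed gates that exclude each other and were left out of all types. Possible doublets were flagged as the cells with the highest Scrublet scores, a set share of each library (8.10% to 8.63% of cells). The transitional gate asks for both C1q and classical monocyte genes. Of its cells, 85.2% were flagged at baseline and 21.2% to 43.3% in the infarcts, and its values are read with that beside them. Flags also fell on 23.9% of cycling and 17.4% of reparative macrophage-like cells at baseline. The threshold set by Scrublet itself called 2.22% of baseline cells and at most 0.0297% of cells in an infarct library.

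The first comparison asked how the receptor genes differed between infarct and baseline cells. The endosomal receptor genes Tlr7 and Tlr8 and the surface receptor gene Tlr4 were lower in all 3 infarct libraries than at baseline. Tlr2 and the co-receptor gene Cd14 were higher in all 3. With 1 baseline library there is no test, and baseline levels carry an exact Poisson interval that covers counting error only.

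Among the surface receptor genes, Tlr2 was at 149.1, 153.1 and 145.5 CPM in infarcts 1 to 3 and at 111.3 CPM at baseline (interval 108.8 to 113.8). The infarct mean of 149 ± 3.79 CPM (SD, n = 3) was 0.42 above baseline on the log2 scale. Tlr4 was at 36.3, 28.8 and 28.2 CPM against 48.1, a mean of 31.1 ± 4.54 CPM that was 1.55-fold below baseline. The infarct libraries thus lay on opposite sides of baseline for these 2 genes, without overlap. Cd14, which hands lipid ligands to both receptors, was at 680, 726 and 1027 CPM against 629. Its mean of 811 ± 189 CPM was 0.37 above baseline on the log2 scale, and 0.16 above without infarct 3. Ly96, the TLR4 partner, was at 56.3, 67.3 and 56.9 CPM and overlapped the baseline level of 60.5.

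Of the endosomal receptor genes, Tlr7 was at 54.7, 61.8 and 66.5 CPM in the infarcts and at 118 CPM at baseline. The mean of 61.0 ± 5.98 CPM was 1.93-fold lower than baseline, a log2 difference of -0.95 that became -1.02 without infarct 3. Tlr8 was at 27.5, 32.3 and 39.2 CPM against 66.3. Its mean of 33.0 ± 5.84 CPM was 2.01-fold lower, and its log2 difference was -1.01, or -1.15 without infarct 3. For both genes the highest infarct library lay far under the baseline interval. Tlr13 was at 58.0, 55.8 and 60.6 CPM against 69.5, a log2 difference of -0.26 that turned to 0.03 when libraries were scaled by TMM (a trimmed mean of ratios between libraries). Tlr9 was sparse, with 212, 307 and 287 UMIs in the infarcts and 228 at baseline. Its levels of 2.40, 3.27 and 3.36 CPM reached into the baseline interval of 2.95 to 3.84. The adaptor gene Myd88 was at 56.1, 46.4 and 40.9 CPM and lay on both sides of the baseline level of 43.7.

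Across all 8249 genes at 10 CPM or more, 29.1% had all infarct libraries above baseline and 58.1% had all of them below, with a median log2 difference of -0.21. By this rule Tlr2 and Cd14 were above and Tlr4, Tlr7, Tlr8 and Tlr13 were below, so the direction alone sets them little apart from other genes. Tlr9, under the 10 CPM limit of these shares, also lay below the baseline level in all 3 infarct libraries but within its interval in 2, and under TMM scaling it was above baseline in 2 libraries. Relative to that median the log2 differences were -0.79 for Tlr8, -0.74 for Tlr7 and -0.42 for Tlr4, against 0.63 for Tlr2 and 0.58 for Cd14. A fold of at least 2 with all infarct libraries on one side was reached downwards by 1 of the 9 genes, Tlr8, and by 7.21% of all genes, and upwards by none of the 9 and by 2.35% of all genes. The former count rests on the scaling and on infarct 3. Under TMM scaling Tlr8 was at -0.72 and none of the 9 was 2-fold lower, and without infarct 3 Tlr7, at -1.02, was 2-fold lower as well. TMM scaling moved the median of all genes to 0.09. Under it Tlr2, Cd14, Ly96, Myd88 and Tlr13 were above baseline in all infarct libraries, and Tlr4, Tlr7 and Tlr8 were below.

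**Figure D1:**
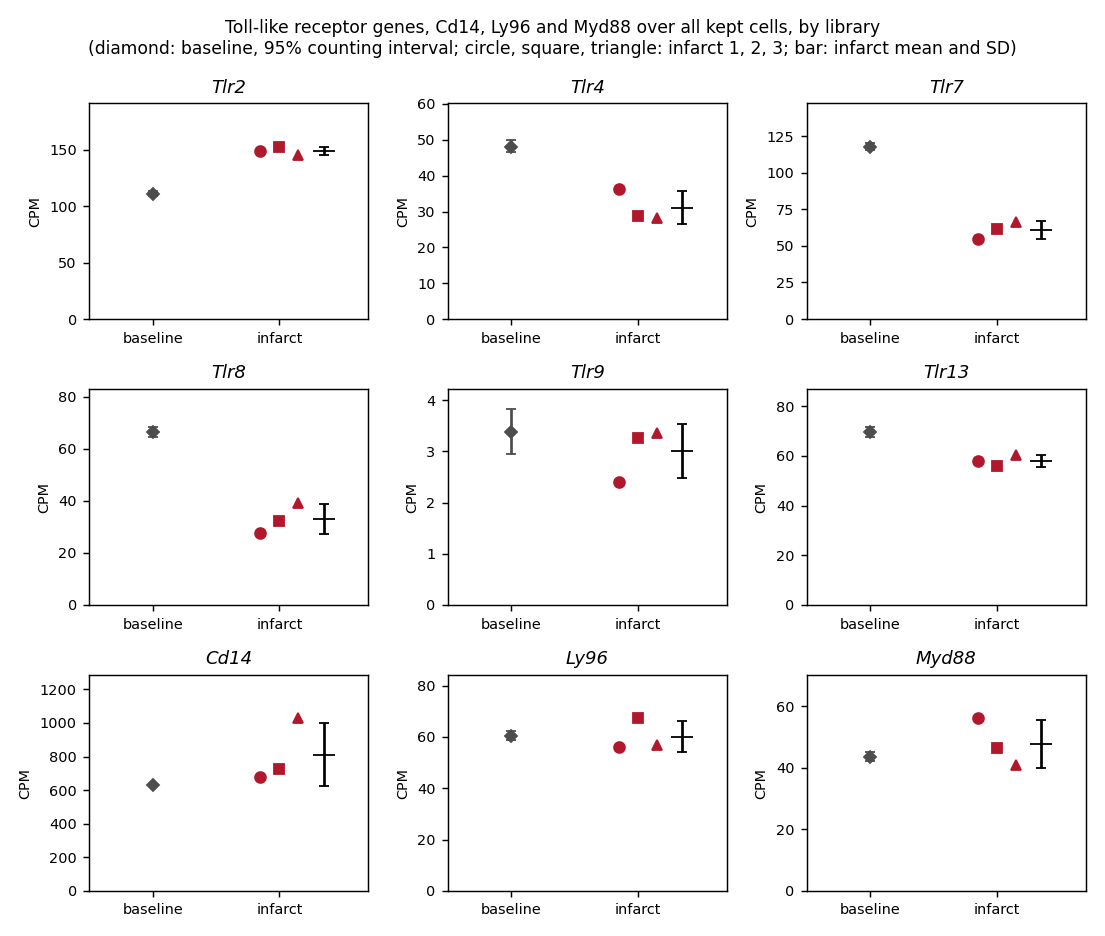
Level of each gene over all kept cells (CPM, linear axes from 0) in the baseline library (diamond with its exact Poisson interval) and in infarct libraries 1, 2 and 3 (circle, square and triangle), with the infarct mean and SD (n = 3). Tlr7 (54.7 to 66.5 against 118 CPM) and Tlr8 (27.5 to 39.2 against 66.3 CPM) lay below baseline in every infarct library and Tlr2 (145.5 to 153.1 against 111.3 CPM) above, while Cd14 was highest in infarct 3; Tlr13 lay below baseline on this scale but not under TMM scaling.

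The share of cells with a UMI followed the same pattern once every cell was thinned to 2000 UMIs, which left 28732 infarct and 8991 baseline cells. Tlr7 was found in 11.3% ± 1.21 of infarct cells (SD, n = 3) and in 20.7% of baseline cells (exact binomial interval 19.9% to 21.5%). The corresponding shares were 6.31% ± 1.32 and 11.8% for Tlr8, and 5.89% ± 0.772 and 8.49% for Tlr4. Tlr2 was found in 23.9% ± 0.486 of infarct cells and 17.7% of baseline cells, and Cd14 in 62.4% ± 4.47 and 54.2%. Without thinning, the shares were 56.6% and 39.9% for Tlr2 and 84.7% and 71.3% for Cd14. As a measure of free RNA, B-cell-like cells, which should lack CD14, held a Cd14 UMI in 5 of 72 thinned baseline cells (6.94%, interval 2.29% to 15.5%), with Tlr2 and Tlr4 in 0 of 72, which allows a share of up to 4.99%. In the infarcts 7 of 46 B-cell-like cells held a Cd14 UMI and 2 held a Tlr2 UMI. Those B-cell-like cells had a median of 3279 UMIs before thinning, against 6971 for the thinned baseline cells as a whole.

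Over all cells, a different make-up of types and a different level within types cannot be told apart, so the same comparison was made within each of the 11 types. Tlr8 was lower in every infarct library than the baseline interval in 11 of 11 types, and Tlr7 in 9 of 11. Tlr4 was lower in 4 types and Tlr13 in 4, whereas Tlr2 was higher in 4, Myd88 in 4 and Ly96 in 3. Cd14 was higher in 5 types and lower in 1. This rule takes no account of counting error in the infarct libraries. The Tlr7 and Tlr8 counts include granulocyte-like cells, whose infarct libraries together held 3 Tlr7 UMIs and 0 Tlr8 UMIs. They also include transitional cells, which numbered 88 at baseline. The share of all genes under this same rule is not given. By a looser rule with no interval, the share of all genes with every infarct library under the baseline level was 58.9% in MHC-II-high, 58.2% in other, 56.2% in interferon-response, 54.7% in reparative, 52.6% in cycling and 34.7% in resident macrophage-like cells. It was 48.5% in transitional, 47.6% in classical and 24.9% in non-classical monocyte-like cells, 45.1% in type 2 dendritic-like and 24.5% in granulocyte-like cells. The share with every infarct library above was 26.8% in MHC-II-high, 28.7% in classical, 32.8% in reparative, 21.3% in non-classical, 28.5% in type 2 dendritic-like, 41.2% in granulocyte-like and 20.2% in resident cells. A difference below baseline was thus common among all genes in most types, and more common than one above in all but granulocyte-like cells.

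Tlr8, the endosomal receptor gene with the most uniform difference, was at 21.9, 39.7 and 44.3 CPM in the resident macrophage-like cells of infarcts 1 to 3 and at 84.5 CPM at baseline. This was its largest log2 difference among types with UMIs in both groups, at -1.26, against a share of 34.7% of all genes below baseline in that type. In classical monocyte-like cells (Ly6c2, Plac8, Chil3), 29.6, 31.7 and 35.0 CPM stood against 73.0, a 2.27-fold difference. In reparative macrophage-like cells it was at 34.3, 36.7 and 45.8 CPM against 83.2, and in MHC-II-high macrophage-like cells at 27.8, 29.7 and 37.8 against 62.6. All of these infarct values lay below the baseline interval. Without infarct 3 the log2 differences were -1.46 in resident, -1.25 in classical, -1.23 in reparative and -1.12 in MHC-II-high cells. The smallest log2 difference, -0.52, was in non-classical monocyte-like cells (Ace, Treml4, Adgre4), with 25.8, 51.5 and 49.8 CPM against 60.7 (-0.65 without infarct 3). Granulocyte-like cells had no Tlr8 UMI in any infarct library and 7 UMIs in 50 cells at baseline.

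Tlr7, its neighbour on the X chromosome and like it a sensor of single-stranded RNA, differed most in classical monocyte-like cells, apart from granulocyte-like cells, where infarct and baseline held 3 and 4 UMIs. The classical monocyte-like levels of 28.1, 45.0 and 55.4 CPM stood against 131 at baseline, a 3.07-fold difference with a log2 value of -1.62, or -1.85 without infarct 3. In resident macrophage-like cells 82.0, 135 and 111 CPM stood against 150, a log2 difference of -0.46. In MHC-II-high macrophage-like cells 45.5, 46.4 and 55.7 CPM stood against 93.6, a 1.90-fold difference. Without infarct 3 these differences were -0.47 and -1.03. The 2 types that overlapped the baseline interval were reparative macrophage-like cells, with 72.9, 69.5 and 77.4 CPM against 77.3, and type 2 dendritic-like cells. Infarct and baseline libraries therefore lay close together in reparative cells and far apart in classical monocyte-like cells; the difference between these types was not tested. In the type 2 dendritic-like cells (Cd209a, Flt3, Clec10a) levels were low in both groups, with at most 9.1 CPM in an infarct against 10.4 (interval 5.81 to 17.1).

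Tlr4, the receptor for bacterial lipopolysaccharide, was lower in MHC-II-high, other, interferon-response and cycling macrophage-like cells. It was at 30.8, 25.3 and 22.6 CPM against 53.8 in MHC-II-high macrophage-like cells, a 2.05-fold difference. It was at 37.1, 32.3 and 32.0 CPM against 68.1 in other macrophage-like cells, a 2.02-fold difference. In interferon-response macrophage-like cells the log2 difference was -1.16, on 44 UMIs in 81 cells at baseline. These levels did not overlap the baseline intervals. In resident macrophage-like cells 76.6, 53.6 and 54.7 CPM overlapped the baseline level of 76.3, and in reparative cells 34.4, 29.2 and 27.3 CPM overlapped 31.3. Classical monocyte-like cells went the other way, with 42.3, 27.3 and 18.7 CPM against 16.5, but infarct 3 fell within the baseline interval.

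Cd14 was above baseline in some types and below it in 1. In classical monocyte-like cells 823, 1178 and 1058 CPM stood against 492, a 2.07-fold difference. In granulocyte-like cells (Csf3r, Cxcr2, Retnlg) 882, 1459 and 1425 CPM stood against 611, where baseline rested on 62 UMIs. Non-classical monocyte-like cells held little Cd14, at 176, 92.0 and 115 CPM against 69.6. Reparative macrophage-like cells were at 666, 695 and 1032 CPM against 536. All infarct values in these 4 types were above the baseline interval. Cycling macrophage-like cells (Mki67, Top2a) were below it, with 502, 591 and 708 CPM against 836. In MHC-II-high macrophage-like cells 794 and 797 CPM in infarcts 1 and 2 lay below the baseline level of 927, and 1315 CPM in infarct 3 lay above it, so that the log2 difference without infarct 3 was -0.22. Other macrophage-like and interferon-response macrophage-like cells showed the same split, with log2 differences of -0.38 and -0.24 without infarct 3.

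Tlr2 was above baseline in MHC-II-high macrophage-like cells, where 173.8, 170.3 and 177.4 CPM stood against 141.5, in reparative cells with a log2 difference of 0.48, in resident cells with 0.33 and in classical monocyte-like cells with 0.31. Ly96 was above baseline in classical monocyte-like cells, with 59.8, 65.7 and 62.1 CPM against 45.0, in non-classical monocyte-like cells with 38.7, 51.5 and 46.7 CPM against 30.5, and in reparative cells with a log2 difference of 0.48. Both genes were thus above baseline in classical monocyte-like and reparative cells. Myd88 was at 103, 70.0 and 52.9 CPM against 38.9 in non-classical monocyte-like cells and at 110, 117 and 93.1 CPM against 47.0 in type 2 dendritic-like cells. It was also higher in classical monocyte-like cells, by 0.35 on the log2 scale, and in resident cells, by 0.25. Tlr13 was lower in classical monocyte-like cells, with 58.6, 54.7 and 70.6 CPM against 101.6, and in MHC-II-high cells, with a log2 difference of -0.34. Its differences of -0.25 in other macrophage-like and -0.32 in reparative cells did not hold their sign, becoming 0.03 under TMM scaling and 0.04 after thinning to 2000 UMIs. Without infarct 3 the Tlr13 differences were -0.84 in classical monocyte-like, -0.37 in MHC-II-high, -0.26 in other macrophage-like and -0.33 in reparative cells. In non-classical monocyte-like cells Tlr13 overlapped baseline, at 176, 151 and 159 CPM against 183.

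**Figure D2:**
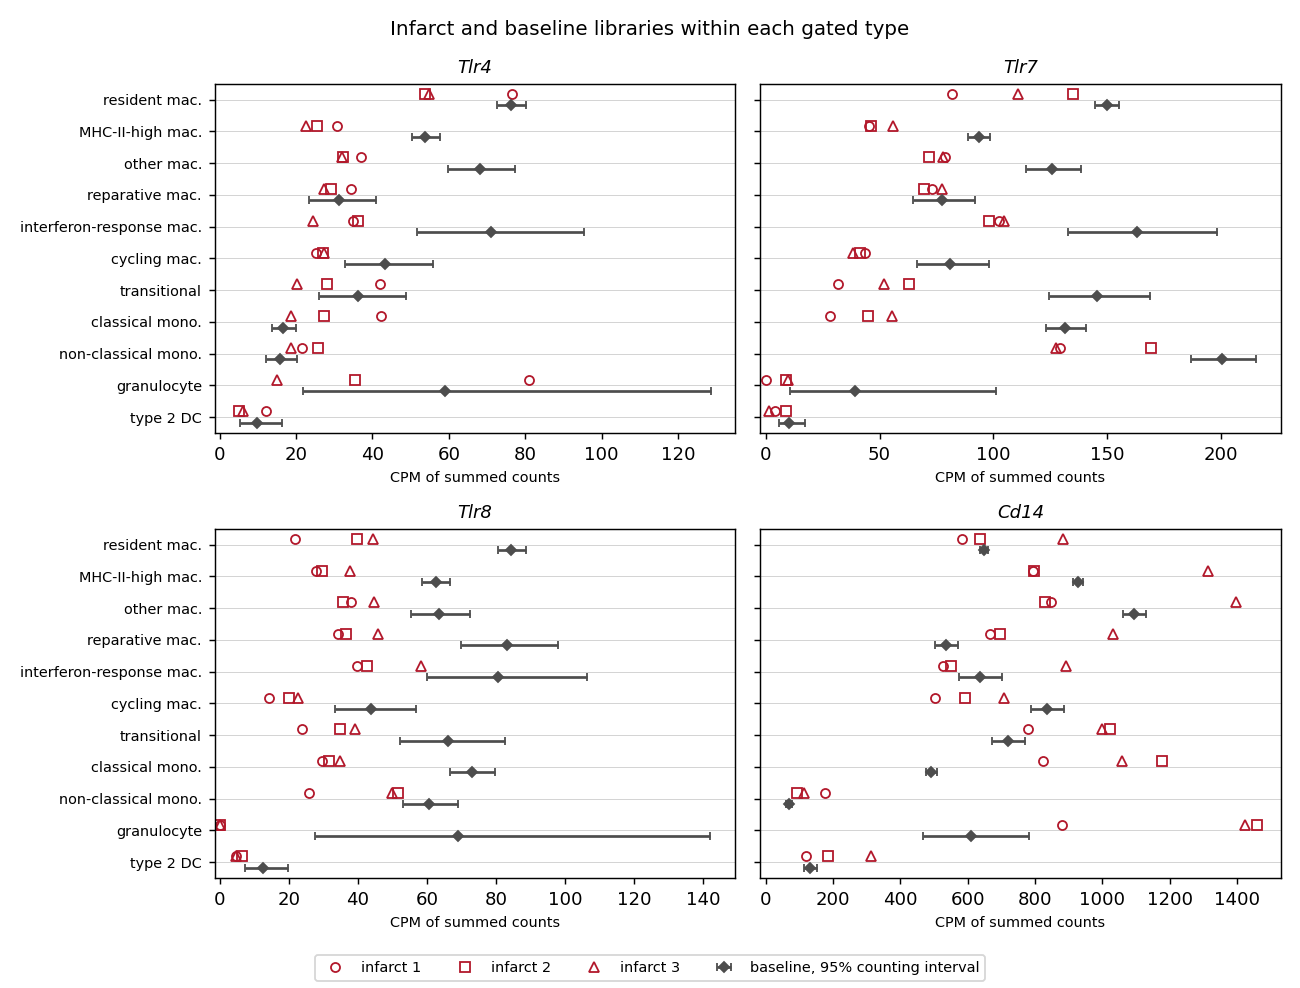
Levels of Tlr4, Tlr7, Tlr8 and Cd14 (CPM, linear axes) within the 11 types in infarct libraries 1, 2 and 3 (open circle, square and triangle) and in the baseline library (filled diamond with its exact Poisson interval). Tlr8 lay under the baseline interval in every infarct library and type, Tlr7 did so in 9 types but not in reparative macrophage-like cells (69.5 to 77.4 against 77.3 CPM), and Cd14 lay above baseline in 5 types and below it in cycling cells.

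The next comparison asked which types within the infarct carried each gene. Each type was set against all other cells of the same heart, with edgeR quasi-likelihood tests over all genes and the library as a block. SEs and p-values come from this fit and do not give the spread between the 3 hearts, which the levels of each library show. Interferon-response macrophage-like cells were higher in all 4 endosomal receptor genes and in Myd88. Dendritic-like cells were low in most of the receptor genes, and Myd88 had its highest means in type 2 dendritic-like and classical monocyte-like cells. Of 144 pairs of gene and comparison, including 3 comparisons between types, 72 were called at an adjusted p under 0.01, with 29 higher and 43 lower. Of those 72 calls, 26 held under every alternative that could be run for them.

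Counted by type, 5 of the 9 genes were called in interferon-response cells, all higher, where 12.2% of all genes tested were called, 7.65% as higher and 4.59% as lower. In MHC-II-high cells 3 were higher and 2 lower, where 20.6% of all genes were called, 9.2% as higher and 11.4% as lower. In reparative cells 4 were higher and 1 lower (24.8% of all genes, 10.9% as higher and 13.9% as lower), and in Saa3/Arg1 cells 1 was higher and 3 were lower (24.6%, 12.7% and 12%). Other macrophage-like cells had 3 higher and 1 lower (20.8%, 8.14% and 12.7%), and resident cells 2 higher and 1 lower (10.4%, 4.49% and 5.89%). Cycling cells had 7 called, all lower, against 25.3% of all genes called, 14.1% as higher and 11.2% as lower. Among monocytes, 2 were higher and 2 lower in non-classical cells (18.3%, 8.17% and 10.2%), 1 was higher and 1 lower in classical cells (29.8%, 14.3% and 15.5%), and 1 was higher in transitional cells (9.75%, 4.66% and 5.09%). Granulocyte-like cells had 3 lower (14.3%, 5.08% and 9.26%), mature dendritic-like cells 6 lower (23.2%, 9.47% and 13.8%) and type 2 dendritic-like cells 1 higher and 7 lower (30.1%, 13.6% and 16.5%). The share for classical monocyte-like cells was under that of all genes, that for transitional cells close to it, and the others above it. Leaving out a library moved several of these counts, to 1 of 9 in reparative cells, 2 in Saa3/Arg1 and other macrophage-like cells and 0 in granulocyte-like cells without infarct 3, to 3 in MHC-II-high and 4 in cycling cells without infarct 2, and to 1 in resident cells without infarct 1. In transitional cells the count was 2 without infarct 2 or infarct 3.

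**Figure D3:**
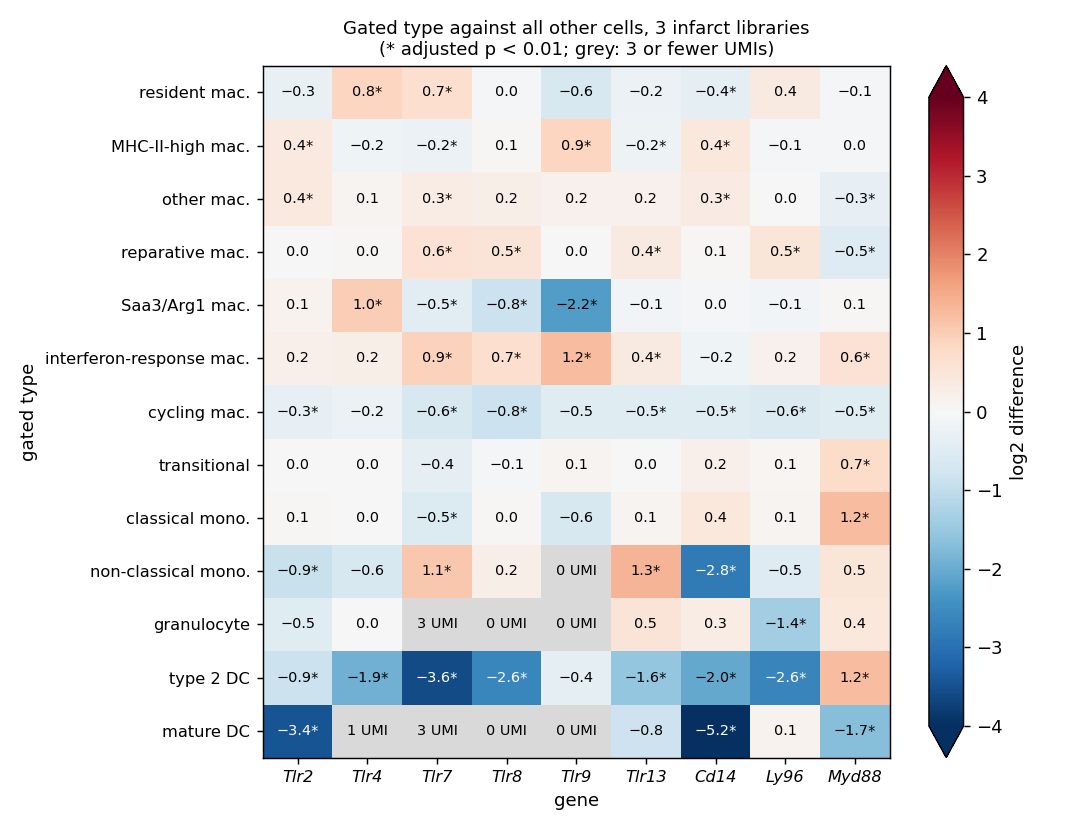
Fitted log2 difference of each gene (columns) in each type against all other cells of the 3 infarct libraries (rows), with red for higher and blue for lower, an asterisk at an edgeR adjusted p under 0.01, and grey where a type held 3 or fewer UMIs. The interferon-response row was higher in Tlr7, Tlr8, Tlr9, Tlr13 and Myd88, the type 2 dendritic row was lower in 7 genes and higher in Myd88 (1.23), and Cd14 was lower in non-classical monocyte-like (-2.84), type 2 dendritic-like (-2.05) and mature dendritic-like (-5.18) cells.

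Among the surface receptor genes, Tlr2 was at 209, 180 and 194 CPM in other macrophage-like cells, the highest mean of all types. These levels overlapped those of Saa3/Arg1, classical monocyte-like and transitional cells, but not those of MHC-II-high cells, which came next by mean. Against all other cells it was higher there by 0.38 ± 0.05 (log2 ± SE, edgeR adjusted p 0.000616) and in MHC-II-high macrophage-like cells by 0.39 ± 0.03 (edgeR adjusted p 4.32e-05). Both differences were in the same direction in 3 of 3 libraries. Tlr2 was lower in type 2 dendritic-like cells, at 70.9, 79.4 and 94.6 CPM (fell by 0.87 on the log2 scale, SE 0.10, edgeR adjusted p 3.66e-07), and in mature dendritic-like cells (Ccr7, Fscn1, Ccl22), at 10.1, 22.5 and 10.0 CPM. The mature dendritic-like cells formed the low end of the order with a gap to the next type. In non-classical monocyte-like cells the levels were 137.7, 88.4 and 52.9 CPM, and the log2 difference of -0.88 was -0.59 and no longer called without infarct 3. Cycling cells were lower by 0.33, a call lost without infarct 2 or infarct 3.

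Cd14 was high in nearly all macrophage-like and classical monocyte-like types and low in 3 others. In non-classical monocyte-like cells it was at 176, 92.0 and 115 CPM, against a mean of 813 ± 190 CPM in all other cells (log2 -2.84 ± 0.14, edgeR adjusted p 5.59e-91). Type 2 dendritic-like cells were at 118.5, 186.3 and 313.1 CPM (log2 -2.05 ± 0.10, edgeR adjusted p 6.24e-13). Mature dendritic-like cells were at 16.2, 29.9 and 20.0 CPM, on 20 UMIs in all (log2 -5.18 ± 0.24, edgeR adjusted p 4.37e-100). These 3 calls held under all 13 alternatives. The very small p-values come from the edgeR fit on 3 hearts and do not measure the spread between hearts. Macrophage types differed far less. Cd14 was higher in MHC-II-high cells by 0.41 ± 0.04 (edgeR adjusted p 0.000144), lower in cycling cells by 0.48, and higher in other macrophage-like cells by 0.32, a call lost without infarct 3, where the difference was 0.24. In resident cells the difference of -0.36 was lost without infarct 1 or infarct 3. Classical monocyte-like cells had the levels of 823, 1178 and 1058 CPM given above, and their difference of 0.41 did not pass the test (edgeR adjusted p 0.0181).

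Tlr4 was highest in 2 macrophage-like types that differ in their markers. In Saa3/Arg1 macrophage-like cells it was at 61.0, 63.2 and 57.4 CPM, against a mean of 29.5 ± 4.06 CPM in all other cells (log2 0.97 ± 0.11, edgeR adjusted p 2.29e-06), and the call held under all 13 alternatives. In resident macrophage-like cells it was at 76.6, 53.6 and 54.7 CPM (log2 0.85 ± 0.18, edgeR adjusted p 3.89e-05), a call lost without infarct 1, where the difference was 0.79. The levels of these types overlapped each other and those of granulocyte-like cells, which ranged from 15.1 to 81.0 CPM. Tlr4 was lowest in type 2 dendritic-like cells, with 12.1, 4.9 and 6.2 CPM (log2 -1.92 ± 0.20, edgeR adjusted p 9.26e-08), and in mature dendritic-like cells, where 1 UMI gave a ratio to all other cells of 0.0334 (counting interval 0.000847 to 0.186).

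Ly96, whose product TLR4 needs to bind its ligand, followed Tlr4 in some types and not in others. Resident macrophage-like cells had the highest mean of both genes, with Ly96 at 60.2, 111 and 84.6 CPM, and type 2 dendritic-like cells were at the low end of both. Ly96 was higher in reparative macrophage-like cells, at 67.8, 74.8 and 67.0 CPM against a mean of 53.8 ± 6.44 CPM (log2 0.48 ± 0.05, edgeR adjusted p 0.000925), a call lost without infarct 3 with the difference at 0.45. Type 2 dendritic-like cells had 9.1, 11.9 and 7.7 CPM (log2 -2.63 ± 0.17, edgeR adjusted p 3.36e-11). Mature dendritic-like cells had 64.9, 78.6 and 50.1 CPM, a difference of 0.14 that did not pass the test (edgeR adjusted p 0.696). The dendritic-like types thus lay at different places in the order of Ly96 although both were low in Tlr4 and Cd14. Ly96 was also lower in cycling cells, by 0.59, a call lost without infarct 2 (-0.41), and in granulocyte-like cells, by 1.40 on 12 UMIs, a call lost without infarct 1 (-1.245) or infarct 3 (-1.31). The reparative macrophage marker list was at 46.6 of every 10000 UMIs in mature dendritic-like cells (mean of library medians). That was above the library medians of 27.3 to 30.3 in reparative cells, so the list is not particular to that type. The part of these markers in the Ly96 levels was not tested.

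Of the endosomal receptor genes, Tlr7 was highest in non-classical monocyte-like cells, at 129, 169 and 128 CPM against a mean of 60.7 ± 5.95 CPM in all other cells (log2 1.08 ± 0.19, edgeR adjusted p 1.59e-07). Resident macrophage-like cells were at 82.0, 135 and 111 CPM (log2 0.69 ± 0.14, edgeR adjusted p 2.17e-05), and interferon-response macrophage-like cells (Cxcl10, Ifit1, Rsad2) at 102, 98.0 and 105 CPM (log2 0.94 ± 0.07, edgeR adjusted p 1.17e-07). The resident levels overlapped those of both other types, while the non-classical and interferon-response levels did not overlap each other. Without infarct 3 they kept their calls, with log2 differences of 1.21, 0.73 and 0.97. Reparative cells were at 72.9, 69.5 and 77.4 CPM (log2 0.56 ± 0.07, edgeR adjusted p 0.00241), a call lost without infarct 3 with the difference at 0.59. Type 2 dendritic-like cells were at 4.3, 9.1 and 1.5 CPM (log2 -3.58 ± 0.24, edgeR adjusted p 7.74e-11), or -3.19 without infarct 3. Granulocyte-like and mature dendritic-like cells held 3 UMIs each, at ratios to all other cells of 0.116 (counting interval 0.0239 to 0.339) and 0.0511 (0.0105 to 0.149). In classical monocyte-like cells the difference of -0.55 (edgeR adjusted p 0.0099) was called under 3 of 13 alternatives and was -0.33 without infarct 1.

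Tlr8 was higher in interferon-response cells, at 39.8, 42.6 and 58.2 CPM (log2 0.67 ± 0.08, edgeR adjusted p 2.38e-05), and in reparative cells, at 34.3, 36.7 and 45.8 CPM (log2 0.52 ± 0.05, edgeR adjusted p 0.000773). Without infarct 3 the former kept its call at 0.63 and the latter lost it at 0.52. It was lower in Saa3/Arg1 cells, at 16.7, 13.6 and 24.7 CPM (log2 -0.85 ± 0.14, edgeR adjusted p 9.92e-05), in cycling cells by 0.85 and in type 2 dendritic-like cells by 2.62. Without infarct 3 these calls held, at -0.95, -0.84 and -2.43. Non-classical monocyte-like cells, the high end for Tlr7, were not called for Tlr8 (log2 0.24, edgeR adjusted p 0.622). No Tlr8 UMI was found in mature dendritic-like or granulocyte-like cells. A floor of 3 counts over the infarct libraries together would lie 10.6-fold and 4.65-fold below all other cells. The upper counting limits of the ratios to all other cells were 0.116 and 0.264. Without infarct 3 the mature dendritic-like call held and the granulocyte-like call was lost.

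Tlr13 was set apart in non-classical monocyte-like cells, at 176, 151 and 159 CPM against a mean of 57.8 ± 2.35 CPM in all other cells (log2 1.34 ± 0.18, edgeR adjusted p 5.04e-12). No other type reached these levels, the call held under all 13 alternatives, and without infarct 3 the difference was 1.38. Granulocyte-like cells came next, at 117, 106 and 95.3 CPM on 44 UMIs, without passing the test (log2 0.51, edgeR adjusted p 0.22). The median fitted difference over all genes was -0.48 in granulocyte-like cells, and its part in the Tlr13 value was not tested. Tlr13 was higher in interferon-response cells by 0.36 ± 0.07 (edgeR adjusted p 0.00106), a call lost without infarct 2, and in reparative cells by 0.35 ± 0.04 (edgeR adjusted p 0.00132), a call lost without infarct 3. It was lower in type 2 dendritic-like cells, at 21.2, 14.1 and 23.1 CPM (log2 -1.56 ± 0.15, edgeR adjusted p 1.62e-08, and -1.62 without infarct 3), in cycling cells by 0.48, a call lost without infarct 2, and in MHC-II-high cells by 0.19, a call lost without infarct 2 or infarct 3.

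Tlr9, the receptor for unmethylated DNA, was rare throughout but unequally spread. Interferon-response cells held 25, 29 and 18 UMIs, or 7.3, 4.9 and 6.4 CPM, against a mean of 2.87 ± 0.585 CPM in all other cells (log2 1.23 ± 0.25, edgeR adjusted p 0.003). The call was lost without infarct 1, where the difference was 0.93. MHC-II-high cells held 53, 65 and 63 UMIs, or 3.9, 4.8 and 5.0 CPM (log2 0.87 ± 0.13, edgeR adjusted p 0.00104). Saa3/Arg1 cells held 9 UMIs in all, with a difference of -2.25 that was lost without infarct 3 (-1.61). Non-classical monocyte-like, granulocyte-like and mature dendritic-like cells had none in any infarct library, but the level of all other cells, near 3.02 CPM, was below the floor of 3 counts in each of them, so a lower level was not detectable at this depth.

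Myd88, the shared adaptor, had its highest means in type 2 dendritic-like and classical monocyte-like cells, overlapping the levels of granulocyte-like and non-classical monocyte-like cells. In classical monocyte-like cells it was at 99.5, 97.4 and 112 CPM against a mean of 44.8 ± 7.02 CPM in all other cells (log2 1.25 ± 0.11, edgeR adjusted p 4.63e-05). In type 2 dendritic-like cells it was at 110, 117 and 93.1 CPM (log2 1.23 ± 0.10, edgeR adjusted p 3.87e-09), where 7 of the other 8 genes were lower. Both calls held under all 13 alternatives, and the levels overlapped. Transitional cells were higher by 0.74 ± 0.11 (edgeR adjusted p 5.75e-07) and interferon-response cells by 0.57 ± 0.09, at 62.4, 62.8 and 62.2 CPM (edgeR adjusted p 0.000259). It was lower in reparative cells, at 40.3, 36.7 and 31.8 CPM (log2 -0.50 ± 0.04, edgeR adjusted p 0.000514), in cycling cells by 0.49, a call lost without infarct 1, and in other macrophage-like cells by 0.33, a call lost without infarct 2. Mature dendritic-like cells had 6.1, 22.5 and 25.05 CPM on 14 UMIs, a difference of -1.70 that was -0.92 and not called without infarct 1.

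**Figure D4:**
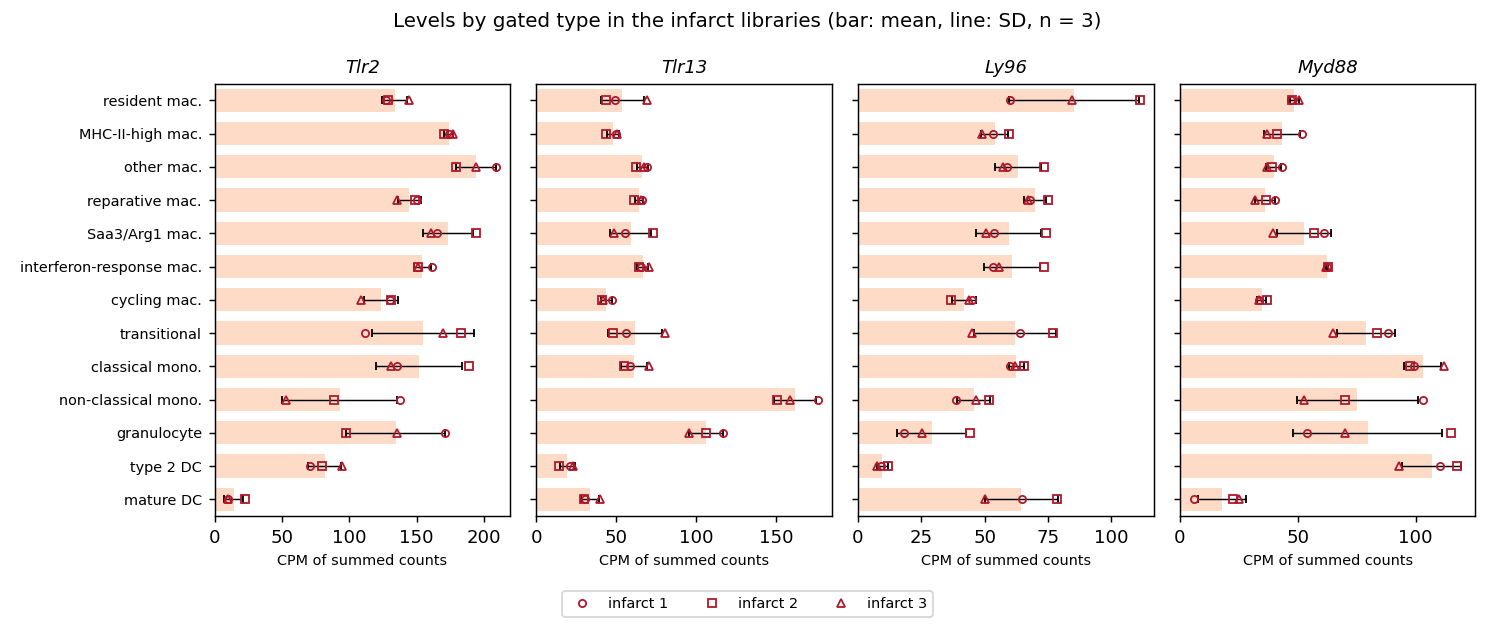
Levels of Tlr2, Tlr13, Ly96 and Myd88 by type in the infarct libraries (CPM, linear axes from 0), with bars for the mean, lines for the SD (n = 3) and symbols for infarcts 1, 2 and 3. Tlr13 stood at 151 to 176 CPM in non-classical monocyte-like cells, Myd88 had its highest means in type 2 dendritic-like and classical monocyte-like cells, and Ly96 was lowest in type 2 dendritic-like cells (7.7 to 11.9 CPM).

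Types were also compared directly. Against all macrophage-like cells together, where 32.6% of all genes were called (16.5% as higher and 16.1% as lower), classical monocyte-like cells differed in 2 of the 9 genes. Myd88 was higher by 1.37 ± 0.11 (edgeR adjusted p 2.95e-05) and Tlr7 was lower by 0.68 ± 0.15 (edgeR adjusted p 0.00561), the latter lost without infarct 3 at -0.84. Cd14, Ly96, Tlr2, Tlr4, Tlr8, Tlr9 and Tlr13 did not pass. Saa3/Arg1 cells and reparative cells differed in 5 genes, where 27.3% of all genes were called (15% as higher and 12.3% as lower). Tlr4 was higher in Saa3/Arg1 cells by 0.86 ± 0.11 (edgeR adjusted p 1.69e-05), and Tlr8, Tlr7, Tlr9 and Ly96 were lower, by 1.13, 0.79, 2.16 and 0.41. Without infarct 3 the Tlr8 and Tlr7 calls held, at -1.25 and -0.94. The calls for Tlr9 (-1.44) and Ly96 (-0.34) were lost without infarct 3, and that for Ly96 also without infarct 1 (-0.40). Tlr4 was thus higher in one of these macrophage-like types and the RNA receptor genes Tlr7 and Tlr8 in the other.

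MHC-II-high and reparative macrophage-like cells, both numerous in every infarct library, differed in 8 of the 9 genes, against 26.4% of all genes (13.3% as higher and 13.1% as lower). MHC-II-high cells were higher in Tlr2 by 0.30 (edgeR adjusted p 0.000183), Cd14 by 0.30 (edgeR adjusted p 5.62e-05), Myd88 by 0.29 (edgeR adjusted p 0.000771) and Tlr9 by 0.70 (edgeR adjusted p 0.00218). They were lower in Tlr7 by 0.54 (edgeR adjusted p 3.8e-06), Tlr13 by 0.39 (edgeR adjusted p 2.15e-05), Ly96 by 0.34 (edgeR adjusted p 8.66e-05) and Tlr8 by 0.26 (edgeR adjusted p 0.00123). Apart from Tlr9, all these differences were small, under 1.5-fold. Tlr4 alone did not pass (log2 -0.17, edgeR adjusted p 0.0255). Without infarct 2 the calls for Tlr8 (-0.27) and Tlr9 (0.69) were lost. Without infarct 3 the calls for Tlr7 (-0.59), Tlr13 (-0.41) and Tlr8 (-0.27) held.

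Of 77 other genes of the pathway in 10 lists, 21 were higher and 6 lower among 76 tested in interferon-response cells, where 7.65% of all genes were called as higher and 4.59% as lower. The median over the lists was 0.15 there, against -0.03 over all genes. Their receptor transport and processing genes, which include the chaperone gene Unc93b1 and cathepsin genes, were called as higher in 4 of 7 and lower in none, and the response genes were higher in 5 (Tnf, Il10, Il1rn, Ccl3 and Ccl4) and lower in 1 (Il1b) of 12. In reparative cells transport and processing genes were higher in 5 of 7, genes that handle nucleic acids upstream of the receptors were higher in 5 of 7, and both lists had none lower. There, the response genes, among them the cytokine gene Il1b and the prostaglandin synthase gene Ptgs2, were lower in 5 of 11 tested, and the brakes of the pathway were lower in 4 of 8. The endogenous ligand genes were lower in 4 of 6 and higher in none, of which S100a8, S100a9 and Vcan are gate markers of other types and Tnc is not. Over all 75 pathway genes tested in reparative cells, 12 were higher and 19 lower, against 10.9% and 13.9% of all genes. Cycling cells had 5 higher and 30 lower of 75, against 14.1% and 11.2% of all genes. Type 2 dendritic-like cells had 10 and 36 of 74, against 13.6% and 16.5%, and resident cells had 2 and 17 of 74, against 4.49% and 5.89%. All these counts over the pathway genes include the gate markers S100a8, S100a9 and Vcan, whose differences follow from the gates.

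Single pathway genes marked some types. Lbp, which delivers lipopolysaccharide to CD14, was at a mean of 34.0 ± 10.8 CPM in Saa3/Arg1 cells and 2.83 CPM in all other cells (log2 3.48, edgeR adjusted p 1.77e-11), the type in which Tlr4 was also higher. Against reparative cells, Saa3/Arg1 cells were higher in the cytokine gene Il6 by 5.26, at 17.1 ± 6.46 CPM against 0.382. They were also higher in Acod1, the itaconate-producing enzyme gene, by 4.16. Acod1 was at 18.3 ± 17.9 CPM against 0.952, a spread between hearts close to its mean. Il12b was at 537 ± 327 CPM in mature dendritic-like cells and at 0.911 CPM in all other cells. Il1b was lower in resident cells, at 132 ± 27.6 CPM against 801 (log2 -2.72, edgeR adjusted p 5.38e-95), and higher in MHC-II-high than in reparative cells, at 1339 ± 117 CPM against 366. Several other leading pathway genes, among them S100a8, S100a9 and Vcan, were gate markers of monocytes or granulocytes, so their differences follow from the gates.

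Between infarct and baseline over all cells, with no test, the cathepsin gene Ctsl was at 593 ± 60.9 CPM against 171 and the protease gene Lgmn at 1257 ± 100.1 CPM against 525. In the values of this paragraph the make-up of types and the level within types cannot be told apart, and no value within a type is given. Endothelial-like cells, for example, numbered 122 at baseline and 7, 7 and 6 in the infarcts. Of 7 transport and processing genes, 3 were at least 2-fold higher by mean with all infarct libraries above baseline, against 2.35% of all genes. In the same list Hsp90b1 (615 against 787 CPM) and Cnpy3 (62.6 against 75.3 CPM) lay below baseline in all infarct libraries. The median log2 difference of that list was 0.97, against -0.21 for all genes. Cd36, a scavenger receptor that partners TLR2, was at 70.0 ± 17.6 CPM against 349, and Tlr5, the flagellin receptor gene, at 2.96 ± 0.481 CPM against 10.8. Tlr1, whose product pairs with TLR2, was at 31.9 ± 2.55 CPM against 19.6. Tlr1 and Tlr2 were thus both above baseline in the infarcts, while Tlr4, Tlr5, Tlr7 and Tlr8 were below it. Other receptor genes did not follow Tlr1. Tlr3 (13.1 against 12.6 CPM) and Tlr6 (8.77 against 8.58 CPM) overlapped baseline. The sparse Tlr11 (0.372 against 1.86 CPM) and Tlr12 (1.13 against 3.52 CPM) were below it.

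Finally, the mean levels of the 9 genes over the 13 types of the infarct libraries were compared with each other and with 7920 genes, as Pearson correlations of log2(CPM + 1) that share libraries and, through them, depth. Tlr2 and Cd14 had a correlation of 0.94, Tlr7 and Tlr8 of 0.92 and Tlr2 and Tlr4 of 0.92, whereas Tlr4 and its partner Ly96 had 0.26 and Ly96 and Myd88 had -0.48. Mature dendritic-like cells had the lowest mean of Tlr2 (14.2 CPM), Tlr4 (0.677 CPM) and Cd14 (22.1 CPM). Type 2 dendritic-like cells were next lowest in Tlr2 and Tlr4. How far the correlations rest on these types was not tested. Resident cells had the highest mean of Tlr4 but rank 9 of 13 for Tlr2. The genes most like each one were Grsf1, Ccdc93 and Ptpn18 for Tlr2 (each 0.96), Tmem189, Smim13 and Man1a2 for Tlr4, Laptm4a, Abcc5 and Lair1 for Tlr7, and Clec4a1, Nagpa and Ptpro for Tlr8. For Tlr13 they were A530013C23Rik, Tmem259 and Lonrf1, for Tlr9 Rilpl1, Ifi44 and Tagap, for Cd14 Clec4a2, Selenon and Tlr2, for Ly96 Lamp1, Kif13b and Atp2b1, and for Myd88 Sdad1, Kdm7a and Lsg1.

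Among all kept cells thinned to 2000 UMIs, Tlr2 and Cd14 were found together in 1057 of 8991 baseline cells, or 11.8%. The product of their shares would be 9.62%. In the infarcts the joint shares were 15.7%, 15.9% and 17.98%, with products of 14.0%, 14.6% and 16.2%. The joint share was above the product in all 4 libraries. These shares mix cells of all types, and types differed in the levels of both genes. Mature dendritic-like cells, for example, had the lowest infarct mean of both. The part of the type mix in the excess over the product was not tested, and no share within a type is given. Tlr4, Ly96 and Cd14, the parts of the lipopolysaccharide receptor, were all found in 0.634% of baseline cells and in 0.387%, 0.406% and 0.375% of infarct cells, shares that at this depth count only cells in which all of these sparse transcripts were captured.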

How the data were processed

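Droplet-based 3′ single-cell RNA-seq was analysed from 1 baseline and 3 infarct libraries. The authors aligned reads to mm10 and deposited filtered matrices of UMI counts per gene and cell. The submitters' notes name Cell Ranger 3.0.1 and the matrix headers 3.1.0.

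Cells with 500 to 40000 UMIs and at least 200 genes were kept. Mitochondrial genes were left out of levels and tests. Cells were assigned to types by marker lists, with a minimum number of markers detected and a minimum summed level per 10000 UMIs. Cells low in macrophage markers were given the 1 lineage or monocyte list they passed, and cells passing the macrophage list were split into subsets, with cycling taking precedence over interferon-response, Saa3/Arg1, resident, reparative and MHC-II-high, and with the remainder called other macrophage-like. Macrophage-like cells that passed the classical monocyte list were called transitional. Doublets stayed in the main values. The members, marker lists and pathway lists were chosen with earlier results of these data known. The genes named are the 9 members, the 3 largest called changes per comparison among the pathway genes, other pathway genes as examples of their lists, and the 3 genes most like each member among those at 20 CPM or more in some type.

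UMI counts were summed per library and type. Each type was tested within the 3 infarct libraries against the other cells of the same heart with edgeR 4.0.16 in R 4.3.3 (quasi-likelihood test, TMM, filterByExpr, library as block, Benjamini-Hochberg adjustment over all genes, threshold 0.01). The pairing comes from the design, since both sums of a pair are from 1 heart. Infarct and baseline were compared without a test. Intervals are exact Poisson or Clopper-Pearson at 95% (scipy 1.17.1) and cover counting error only. Folds for a type without UMIs used a floor of 3 counts. The tests were tried on simulated data. The 13 alternatives were another scaling, DESeq2 1.42.0, no count filter, no block, each infarct library left out, thinning to 2000 UMIs, removal of the highest-scoring Scrublet cells (scanpy 1.11.5), a limit of 10% mitochondrial UMIs, at least 1000 UMIs per cell, doubled gate cuts, and macrophages and monocytes as the only other cells.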

Additional observations from a re-analysis of the deposited data

Results flagged for a closer look

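Cd14 lay on different sides of baseline in different types. In all 3 infarct libraries it was above the baseline level in classical monocyte-like cells (log2 difference 1.05), granulocyte-like cells (1.04), non-classical monocyte-like cells (0.88), reparative macrophage-like cells (0.57) and transitional cells (0.37). In cycling macrophage-like cells it was below baseline in all 3 (-0.48). With 1 baseline library the difference between types was not tested.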

How the results depend on the processing

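Of the 72 calls within infarcts, the number lost was 0 without a count filter, 1 with at least 1000 UMIs per cell, 1 with Scrublet cells removed, 2 with DESeq2 size factors, 2 with the mitochondrial limit, 10 with doubled gate cuts, 12 with DESeq2 and 22 of 71 after thinning. With macrophages and monocytes as the only other cells 1 of 57 was lost. Without infarct 1, 2 and 3 the numbers lost were 9, 10 and 19. Without the replicate block 39 of the 72 calls stayed, 33 were lost and 1 was gained. Infarct and baseline could not be paired, because the only baseline library pools the hearts of other mice. The cause of these shifts was not tested.

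Counts of the 9 genes called moved as follows. Without the replicate block (the pairing by heart) they were 1 in MHC-II-high, 2 in Saa3/Arg1, 1 in classical, 4 in cycling, 2 in interferon-response, 0 in other, 2 in reparative, 0 in resident and 0 in transitional cells, 3 for MHC-II-high against reparative cells and 1 for classical monocyte-like against macrophage-like cells. With DESeq2 they were 3 in MHC-II-high and 1 in classical cells, 5 for MHC-II-high against reparative and 3 for Saa3/Arg1 against reparative cells. After thinning they were 2 in cycling, 2 in other, 1 in resident and 0 in transitional cells and 3 for Saa3/Arg1 against reparative cells. The classical monocyte-like count was 1 with doubled cuts, at least 1000 UMIs, the mitochondrial limit, Scrublet or size factors, and 1 against macrophages with doubled cuts. The transitional count was 2 against macrophages and monocytes, with Scrublet or without a filter, and 0 with doubled cuts.

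With a library left out the counts ran from 3 to 5 in MHC-II-high, 2 to 3 in Saa3/Arg1, 4 to 6 in cycling, 0 to 3 in granulocyte-like, 2 to 4 in other, 1 to 5 in reparative, 1 to 3 in resident and 1 to 2 in transitional cells, from 3 to 6 for Saa3/Arg1 against reparative cells and from 1 to 2 for classical monocyte-like against macrophage-like cells.

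Under TMM scaling 5 genes were above and 3 below baseline in all infarct libraries. Tlr13 reversed to 0.027 over all cells and 0.030 in other macrophage-like cells under TMM, and to 0.045 in reparative cells after thinning. The number of genes found in over 10% of infarct cells was 5 at 2000 UMIs, 2 at 1000 UMIs and 8 without thinning. Depth limits Tlr9 and the sparse types, whose values rest on few UMIs.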
